A study of Mus musculus with 20 samples.

Results

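Oxidative phosphorylation is carried out by 5 complexes of the inner mitochondrial membrane whose subunits are encoded in 2 genomes. The members described here are the 13 protein-coding genes of mitochondrial DNA, named ND1 to ND6, ND4L, CYTB, COX1 to COX3, ATP6 and ATP8 in the files, and 88 nuclear genes whose symbols name a subunit or a close relative of one. They were chosen by symbol alone and make up 101 of the 24826 genes in the table. By complex, the nuclear members comprised 41 genes of complex I, 4 of complex II, 8 of complex III, 18 of complex IV and 17 of complex V, and the mitochondrial members 7, 0, 1, 3 and 2. Of the 88 nuclear members, 85 had a mean of at least 1 FPKM (fragments per kilobase of gene, scaled to library depth) over the 20 libraries, and Cox7b2, Cox8c and Ndufb11b did not.

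The study sequenced bulk RNA from 10 tissues of wild-type mice, namely brain, heart, lung, thymus, spleen, liver, kidney, intestine, uterus and ovary. Each tissue was represented by 1 library from an animal group labelled with sesame oil (spelt "sasame oil"), called control here, and 1 library labelled DHEA (dehydroepiandrosterone, a steroid precursor of androgens and oestrogens). No other allele or agent is named for either group. The sources used here do not state dose, duration, age, strain, the number of mice or whether tissues shared an animal, and a sample note also names 10x Genomics, while the series is described as bulk. Recovered reads ranged from 13206931 to 20704230 per library, and markers of each of the 10 tissues were highest in that tissue's own pair of libraries. With 1 library per tissue and treatment, no difference within a tissue has a replicate check.

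Complex I oxidises NADH, complex II oxidises succinate, complex III passes electrons to cytochrome c, complex IV passes them to oxygen, and complex V uses the proton gradient to make ATP. Mitochondrial DNA is transcribed as long precursors that are cut into single messages, so its genes share their transcription, while nuclear subunits are transcribed gene by gene and imported as proteins. Complex II has no subunit encoded in mitochondrial DNA. Several complex IV subunits have a widely expressed form and a form typical of heart and skeletal muscle.

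The mitochondrial messages have look-alikes in the nuclear genome, which bears on every level given for them. ATP6, a proton-channel subunit of complex V, and its annotated nuclear copy Gm10925 on chromosome 1 are shown first because no base of the stretch distinguishes them. ND6, a complex I subunit and the only protein gene on the opposite strand of mitochondrial DNA, is shown with its copy Gm11408 on chromosome 4, with capitals at the 2 of 60 bases that differ. All are the first 60 bases of the annotated transcript on GRCm38, from GENCODE, at chrM:7927-7986 (plus strand), chr1:24614592-24614651 (minus), chrM:14011-14070 (minus) and chr4:80003855-80003914 (minus).
ATP6: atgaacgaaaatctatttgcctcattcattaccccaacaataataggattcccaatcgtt
Gm10925: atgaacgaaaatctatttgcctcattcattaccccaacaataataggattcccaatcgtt
ND6: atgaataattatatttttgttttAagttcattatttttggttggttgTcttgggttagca
Gm11408: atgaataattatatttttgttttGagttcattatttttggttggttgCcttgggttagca

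Over all their length, ATP6, COX2, COX3 and ND4L matched copies on chromosome 1 at 100% identity, and ND3 matched one at 99.7%, each along at least 99.0% of the gene. The ND4 copy there matched at 100% but covered 63.6% of the gene. The remaining matches were less alike or shorter. For COX1 the full-length copy was 97.6% identical and a partial one, over 31.3% of the gene, 99.8%. The CYTB copy was 92.9% identical, the ND6 copy 93.6%, the ND2 copy, over 49.1% of the gene, 96.7%, and ND5 had partial copies at 92.4 and 95.2%. Matches were kept only for genes with provisional names (such as Gm10925) and not from every chromosome. Among these, ND1 and ATP8 had no copy of at least 100 bases at 90% identity or more. Of all the copies, Gm10925 and Gm10222, the copy of ND4L, had rows in the table.

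Per length, the 13 mitochondrial genes were far from equal. COX1, the catalytic core of complex IV, was the highest of them, from 2053 FPKM in control thymus to 72938 FPKM in control intestine, and it held 56.5% of the mitochondrial reads of the 20 libraries pooled. As medians over 20 libraries, CYTB, the core of complex III, stood at 35.2% of the COX1 level, ND1 at 31.3% and ND2 at 25.1%, all complex I subunits apart from CYTB. ND6, ND5 and ND4 stood at 9.57, 9.21 and 8.12%. COX3, COX2, ND3, ATP6 and ND4L stood at 1.52, 1.45, 1.13, 0.882 and 0.416% of COX1. These 5 are the genes with a copy at least 99.7% identical along at least 99.0% of the gene, a grouping made after the levels were seen. The other genes except COX1 and ATP8 stood at 8.12 to 35.2%. ATP8, an accessory proton-channel subunit of 204 bases, was lowest at 0.0485%, and its median rested on few reads.

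**Figure D1:**
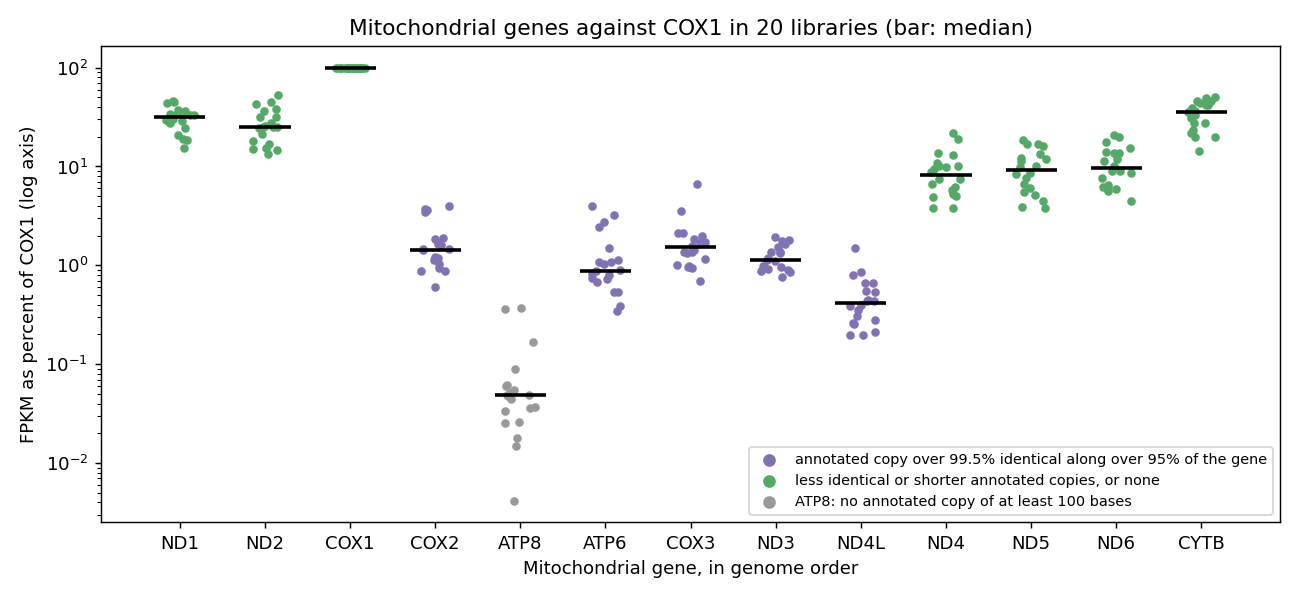
Level of each mitochondrial gene as a percentage of COX1 in the same library (log axis), in genome order, with 1 point per library, a bar at the median of 20 libraries, and colour for the annotated nuclear copy. The 5 genes with a near-identical full-length copy have medians of 0.416 to 1.52% and lie below ND1, ND2, ND4, ND5, ND6 and CYTB.

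Reads are known for the copies Gm10925 and Gm10222 alone. They held, as medians, 1.74 times the reads of ATP6 and 0.796 times those of ND4L. Gm10925 held 452 to 20664 reads per library, 0.648 to 2.17 times the reads of ATP6 in the same library. Gm10222 held 34 to 1070 reads, 0.249 to 1.42 times those of ND4L. The sources used here do not state how reads that match both were assigned, so the levels of COX2, COX3, ATP6, ND3, ND4L and ND4 are uncertain, and the part of the copies in their low level was not tested. ND5 and ND6 overlap by 14 bases on opposite strands (chrM:13552-13565), and the ratio of ND6 to ND5 stayed between 0.917 and 1.48 in 20 libraries. ATP8 and ATP6 share 43 bases (chrM:7927-7969) and ND4L and ND4 share 7. The strand setting is not given, so reads of ND6 and of RNA antisense to it cannot be told apart.

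The balance between the 2 genomes differed widely between tissues. In control libraries the summed level of the 13 mitochondrial genes was 157811 FPKM in intestine, 120076 in heart, 44649 in uterus, 39003 in kidney, 24634 in lung, 24620 in ovary, 20984 in liver, 19695 in brain, 18671 in spleen and 5190 in thymus. The summed level of the 88 nuclear genes followed another order, with 26599 FPKM in heart, 13447 in intestine and 12068 in kidney. Liver had 6620, brain 6279, thymus 6007, uterus 5757, spleen 4329, ovary 4278 and lung 3911. Heart was thus first for the nuclear genes and intestine for the mitochondrial ones.

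In the DHEA libraries intestine and heart again led, and spleen in place of thymus had the lowest mitochondrial sum. Intestine had 156798 and heart 79097 mitochondrial FPKM, and kidney 42932, ovary 23883, brain 18252, liver 15931, uterus 11394, lung 11245, thymus 6867 and spleen 6269. The nuclear sums were 30027 FPKM in heart, 12509 in intestine, 11497 in kidney, 6314 in liver, 6209 in thymus, 5407 in brain, 4039 in uterus, 3842 in spleen, 3827 in ovary and 2926 in lung. On the log2 scale the mitochondrial to nuclear ratio was 3.55 and 3.65 in intestine (control, then DHEA) and -0.21 and 0.15 in thymus, the extremes of the 20 libraries. Heart, with the highest nuclear sum, had intermediate ratios of 2.17 and 1.40.

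**Figure D2:**
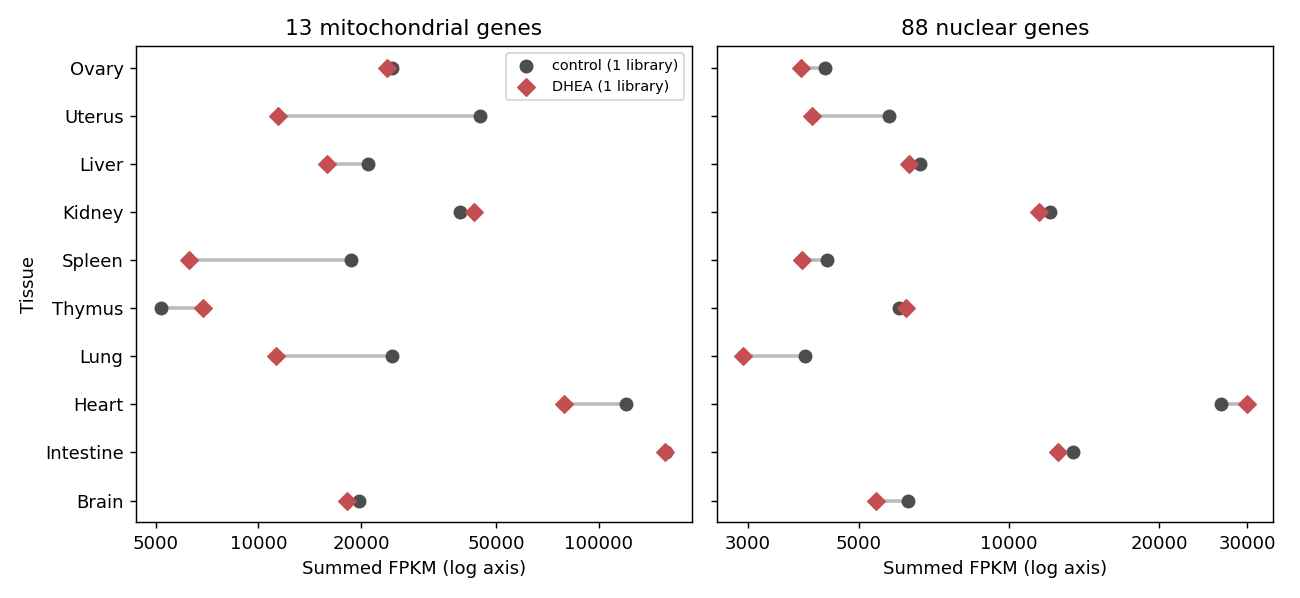
Summed FPKM of the 13 mitochondrial genes (left) and the 88 nuclear genes (right) in each tissue on log axes, with a grey circle for the control library and a red diamond for the DHEA library. The mitochondrial sums of uterus, spleen and lung lie far apart between treatments, while the widest nuclear gap, in uterus, is from 5757 to 4039 FPKM.

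Tissue differences were tested two-sided with limma on log2(FPKM + 1) over all 14833 genes that averaged 1 FPKM or more, with treatment as a covariate. The residual spread is that between the 2 libraries of a tissue, so the p-values measure only the spread between these libraries. All 13 mitochondrial and all 85 nuclear members passed the F test over 10 tissues at an adjusted p of 0.05, as did 98.9% of all genes tested. Against the mean of the other 9 tissues, heart was higher for 81 of 85 nuclear members and 12 of 13 mitochondrial ones, and lower for 3 and 0. The background was 15.3% of genes higher and 57.9% lower. The median nuclear member was higher in heart by 2.06 on the log2 scale and the median mitochondrial one by 2.01, while the median of all genes was -0.62. Without the control heart library, 6 of the 13 mitochondrial members were called higher.

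Kidney was higher for 69 of 85 nuclear members and 4 of 13 mitochondrial ones, with a background of 22.8% higher and 33.0% lower, and the median nuclear difference was 0.78. No mitochondrial member was called in kidney without its DHEA library. The 2 nuclear members called lower in kidney were the muscle and lung forms Cox6a2 and Cox4i2. Brain had 2 nuclear members higher and 27 lower, and 0 mitochondrial members called, against a background of 28.7% and 37.5%. The balance of calls turned when each library was rescaled to the same summed FPKM of all genes but the mitochondrial ones. Before it, the 2 brain libraries had the lowest summed FPKM, 241368 and 236304, with 2.52 and 2.36% mitochondrial reads. After it, 27 nuclear members were higher and 6 lower, as were 5879 and 4199 of all 14907 genes. No direction is therefore given for brain.

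Within the nuclear genes most members followed one tissue profile. Heart had the highest mean level for 76 of the 85 members, and for 69 both heart libraries lay above all 18 others. Lung had the lowest mean level for 46 of 85. The Pearson correlation of each member with the median of the other nuclear members over the 10 control libraries had a median of 0.94 and exceeded 0.8 for 73 of 85 members. It was below 0.5 for 8, namely Cox6b2, Cox7a2l, Cox4i2, Ndufa4l2, Ndufb2, Cox6a1, Cox8a and Atp5g2. These correlations are a description, since the points share libraries and scaling. In the 10 DHEA libraries the median was 0.95. The share of all genes that peak in heart, are lowest in lung or correlate as highly is not given here. How far the members differ from other genes in these counts is therefore not shown.

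**Figure D3:**
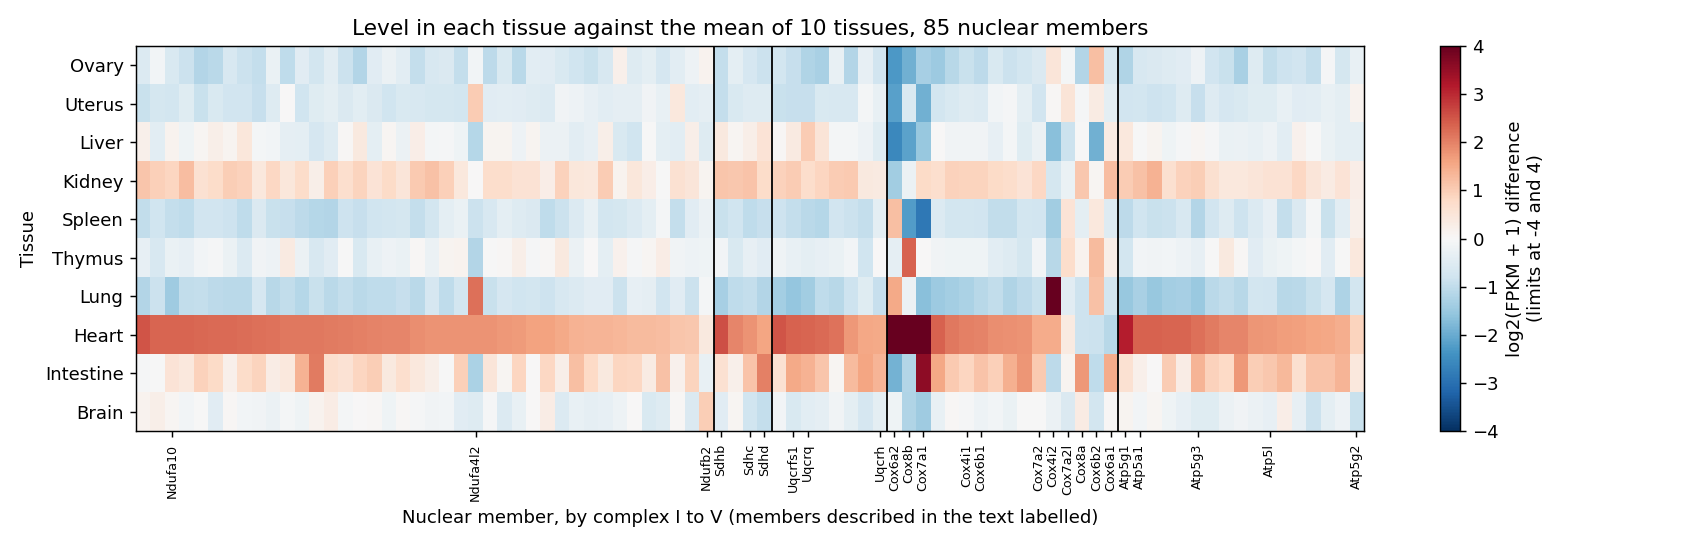
Mean log2(FPKM + 1) of the 2 libraries of each tissue (rows) minus the mean of the 10 tissues, for 85 nuclear members (columns), ordered by complex I to V and then by the heart difference, with colours capped at -4 and 4 and labels for members described in the text. The heart row is red for most members, and Cox6a1, Cox6b2, Cox8a and Cox4i2 depart from the common profile.

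Among complex I subunits, Ndufa10, an accessory subunit, had the widest range between tissue means, 3.75 on the log2 scale from lung to heart. In complex II, Sdhd, a membrane anchor, had the highest mean (174 FPKM) and was highest in intestine. Sdhb, the iron-sulphur subunit, had the widest range (3.89), from lung to heart. The anchor Sdhc had the lowest mean (73.2 FPKM) and the narrowest range (2.79). FPKM divides reads by gene length, taken as 3250 bases for Sdhc and 1231 for Sdhd. In the control heart library Sdhc held 10667 reads and Sdhd 7929, so ranks of mean FPKM between genes depend on these lengths.

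In complex III, Uqcrfs1, the Rieske iron-sulphur protein, had the highest mean (220 FPKM) and the widest range (3.88). It stood at 727 and 804 FPKM in heart and at 43.3 to 472, median 104, in the other 18 libraries. Uqcrq had the lowest mean (80.7 FPKM), and Uqcrh, the hinge protein, the narrowest range (2.44). In complex V, Atp5a1, the alpha subunit of the catalytic head, had the highest mean (477 FPKM), with 1700 and 1912 FPKM in heart and 137 to 820 elsewhere. Atp5l, a membrane-domain subunit, had the lowest mean (29.4 FPKM), counted over a length of 6443 bases. In control heart it held 9211 reads, against 1791 for Atp5k, which has 616 bases and a mean of 66.0 FPKM. Of the 3 genes that encode the same c-ring protein, Atp5g1 had the widest range in complex V (4.65) and Atp5g2 the narrowest (1.79). Atp5g1 stood at 198 and 205 FPKM in heart and at 6.66 to 47.7 elsewhere, and its heart difference was 3.47 ± 0.12 (SE, limma, adjusted p = 1.81e-10). Atp5g3 was the highest of the 3 in heart, at 642 and 699 FPKM.

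Complex IV held the forms that separated tissues most sharply. Cox6b1, at the dimer interface, had the highest mean of the complex (382 FPKM), and Cox6a2, the muscle form of subunit 6a, had its widest range between tissue means, 10.7 on the log2 scale. Cox6a2 stood at 1641 FPKM in the control and 1885 in the DHEA heart library, and at 0 to 19.9 FPKM, median 1.33, in the other 18. Its partner Cox6a1 stood at 76.9 and 89.6 FPKM in heart and at 89.97 to 558 elsewhere, so heart held the lowest values of the widespread form and the highest of the muscle form. Cox6a2 made up 95.5% of the pair's summed FPKM in both heart libraries. Its heart difference was 9.07 ± 0.30 (SE, limma, adjusted p = 1.83e-10), and that of Cox6a1 was -1.22 ± 0.14 (adjusted p = 1.04e-05).

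Subunit 8 showed the same division. Cox8b, the muscle form, stood at 712 and 896 FPKM in heart and at 0 to 38.1 elsewhere, and was 87.5 and 88.6% of Cox8b plus Cox8a there. Cox8a stood at 102 and 116 FPKM in heart, with a heart difference of -0.90 ± 0.17 (SE, limma, adjusted p = 0.000496). The third member called lower in heart was Cox6b2, a form typical of testis, at -0.96 ± 0.31 (adjusted p = 0.0153). Cox7a2l, a relative of Cox7a2 that acts in assembling complexes III and IV into supercomplexes, was the nuclear member not called in heart (0.40 ± 0.28, adjusted p = 0.216).

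Subunit 7a differed from 6a and 8 in where its muscle form appeared. Cox7a1 stood at 893 and 1046 FPKM in heart, but also at 143 and 137 FPKM in intestine, where Cox6a2 stood at 0.3 and 1.1 and Cox8b at 1.1 and 1.0. Cox7a1 made up 74.6 and 75.5% of Cox7a1 plus Cox7a2 in heart and 35.9 and 38.0% in intestine. In the remaining 16 libraries it made up at most 11.3%. Its partner Cox7a2 stood at 255 and 223 FPKM in intestine and 304 and 340 in heart. Lung had a form of its own. Cox4i2, the lung form of subunit 4, stood at 80.1 and 54.8 FPKM in lung, 36.0% of Cox4i2 plus Cox4i1 in both libraries. In the other 18 libraries it reached 9.9 FPKM at most, in heart. Ndufa4l2, a relative of Ndufa4, was also highest in lung (30.1 and 29.8 FPKM).

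**Figure D4:**
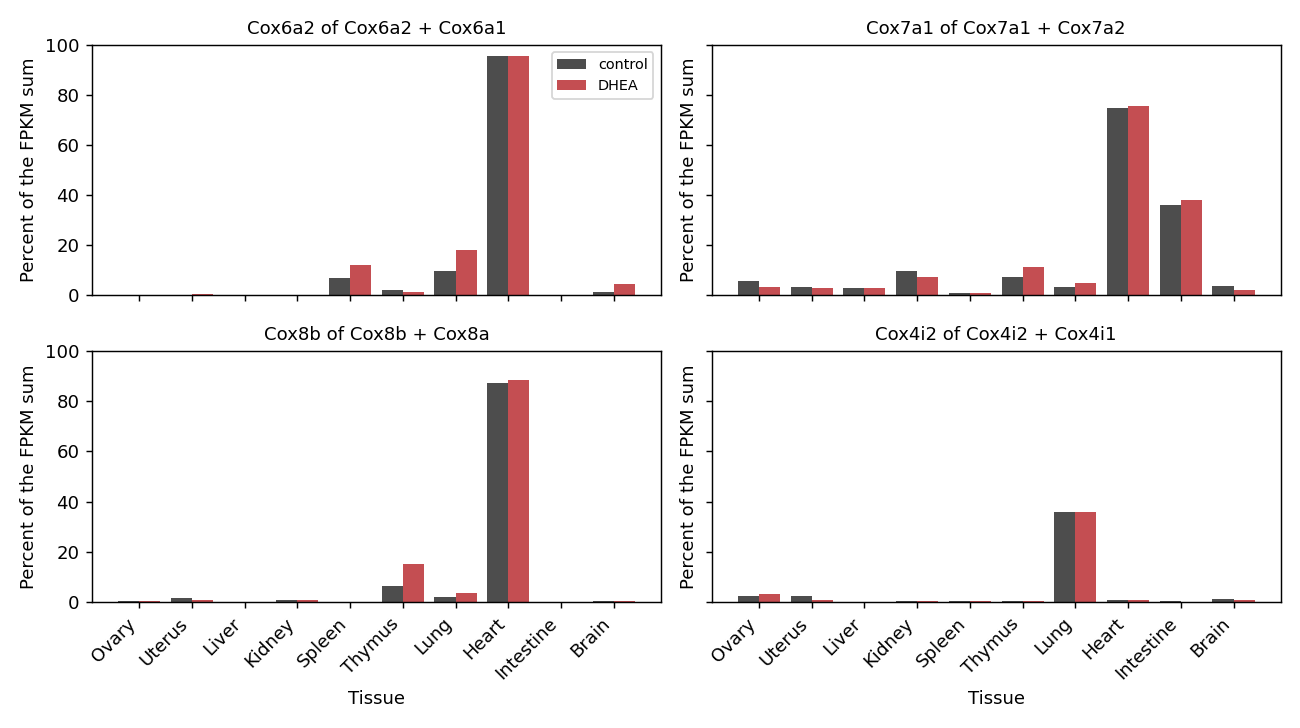
Share of the tissue-restricted form in the summed FPKM of each complex IV subunit pair (vertical axes, percent) by tissue, with grey bars for the control and red bars for the DHEA library. Cox6a2, Cox7a1 and Cox8b make up most of their pair in heart alone (74.6% or more), Cox7a1 has a second peak of 35.9 and 38.0% in intestine, and Cox4i2 one of 36.0% in lung.

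Promoters of the paired forms of subunits 8 and 7a are printed so that a widespread and a muscle form can be set side by side. Each spans 250 bases before to 50 after the start from RefSeq on GRCm38.p6, namely chr19:7217567-7217866 (minus strand) for Cox8a, chr7:140900397-140900696 (minus) for Cox8b, chr9:79759804-79760103 (minus) for Cox7a2 and chr7:30183921-30184220 (plus) for Cox7a1. Capitals mark exact matches, on either strand, of 5 motifs that were searched. These were the NRF1 core GCGCATGC, the ETS core CCGGAAG, the YY1 core AAGATGGCG, the oestrogen-related receptor element TCAAGGTCA and the TATA box TATAAA.
Cox8a: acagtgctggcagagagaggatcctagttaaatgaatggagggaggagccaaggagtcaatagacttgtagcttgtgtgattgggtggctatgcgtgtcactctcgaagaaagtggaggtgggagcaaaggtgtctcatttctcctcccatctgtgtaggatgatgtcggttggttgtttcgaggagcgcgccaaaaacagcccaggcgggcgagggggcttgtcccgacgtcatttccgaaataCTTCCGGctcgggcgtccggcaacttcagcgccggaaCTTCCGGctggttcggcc
Cox8b: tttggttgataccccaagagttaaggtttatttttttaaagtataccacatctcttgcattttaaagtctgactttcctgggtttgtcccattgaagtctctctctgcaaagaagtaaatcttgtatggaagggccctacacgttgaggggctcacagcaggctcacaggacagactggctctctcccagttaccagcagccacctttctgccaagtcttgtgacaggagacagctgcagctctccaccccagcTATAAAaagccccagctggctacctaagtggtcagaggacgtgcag
Cox7a2: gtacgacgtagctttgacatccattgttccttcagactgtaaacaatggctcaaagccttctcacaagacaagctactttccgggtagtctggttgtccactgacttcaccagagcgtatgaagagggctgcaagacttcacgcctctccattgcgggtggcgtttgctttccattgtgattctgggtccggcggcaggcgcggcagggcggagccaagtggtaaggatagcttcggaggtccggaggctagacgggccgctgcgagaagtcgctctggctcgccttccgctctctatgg
Cox7a1: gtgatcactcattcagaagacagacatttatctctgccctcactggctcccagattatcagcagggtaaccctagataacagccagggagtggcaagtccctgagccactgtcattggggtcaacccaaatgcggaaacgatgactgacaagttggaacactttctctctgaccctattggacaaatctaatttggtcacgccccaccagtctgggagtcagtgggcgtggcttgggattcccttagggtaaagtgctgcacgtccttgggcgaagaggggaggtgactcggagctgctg

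The widespread Cox8a had 2 ETS matches and 19 CpG dinucleotides, and Cox8b had a TATA match and 2 CpGs. Cox7a2 and Cox7a1 had none of the 5 motifs and 20 and 7 CpGs. Of the 88 nuclear members, 69 had a promoter entry, with a median of 19 CpGs against 7 for 27025 promoters of all genes. The ETS core was in 23.2% of member promoters and 9.12% of all, the NRF1 core in 14.5 and 2.80%, the YY1 core in 8.70 and 1.49%, the oestrogen-related receptor element in 2.90 and 0.407%, and the TATA box in 11.6 and 14.2%. A match describes letters in the window and is not a binding site.

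Genes that work with the respiratory chain were read from the same fit. All 13 tested genes of the citric acid cycle were higher in heart (median 2.22), as were both tested genes linking cytochrome c (2.77) and 4 of 4 complex V assembly factors (1.42). Complex I assembly factors were higher in heart for 11 of 15 (median 0.72), those of complexes II and III for 7 of 10 (0.86), and those of complex IV for 11 of 19 with 2 lower (0.50). Of 78 mitochondrial ribosome genes, 51 were higher and 1 lower (median 0.53), and of 16 inner-membrane and import genes, 10 were higher and 2 lower (0.73). Of 28 genes that copy, transcribe and process mitochondrial DNA, 11 were higher and 6 lower (median 0.08), and of 10 regulators 5 were higher and 4 lower (0.42). Cytosolic ribosome genes went the other way, with 68 of 81 lower (median -0.96). Of all genes in this contrast 15.3% were higher and 57.9% lower, with a median of -0.62.

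Whether DHEA shifted the members in all tissues alike was tested with limma on the 20 libraries, with tissue as a block. No mitochondrial and no nuclear member passed an adjusted p of 0.05 in either direction, as for all 14833 genes, with a background of 0% higher and 0% lower. At an unadjusted p under 0.05 there were 9 of 13 mitochondrial members, 16 of 85 nuclear ones and 1106 of all genes. In the main fit all 13 mitochondrial differences were negative, with a median of -0.61, and the nuclear median was -0.14 with 7 of 85 positive. Of all 14833 genes 7826 were positive, with a median of 0.01. COX2 and COX3, core subunits of complex IV, had the lowest p among members. COX2 ranged from 38.0 to 2875 FPKM, median 215, in control libraries and from 34.8 to 2599, median 78.9, in DHEA libraries. Its shared difference was -0.86 ± 0.24 (SE, limma, adjusted p = 0.663), and that of COX3 -1.01 ± 0.30 (adjusted p = 0.663).

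Within tissues, the log2 ratio of FPKM + 1, DHEA over control, was read for members whose 2 libraries averaged 5 FPKM or more, and a member was counted at a 2-fold difference or more. Folds are given with a 95% Clopper-Pearson interval from the recovered reads, which covers counting error only. Fewer cells of a type and less RNA per cell cannot be told apart in bulk RNA. The mitochondrial sum was lower in the DHEA library in 8 of 10 tissues and the nuclear sum in 8 of 10, and they went apart in kidney, where the mitochondrial sum was higher and the nuclear lower, and in heart, where it was the reverse.

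**Figure D5:**
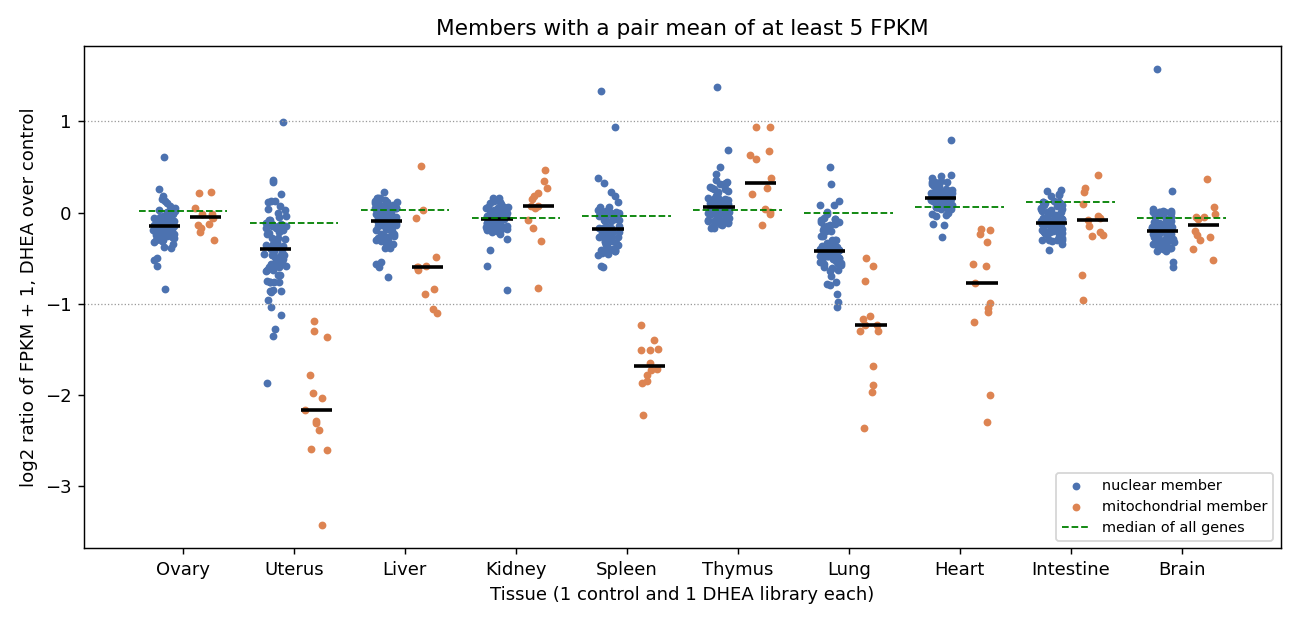
The log2 ratio of FPKM + 1, DHEA over control, of each nuclear (blue) and mitochondrial (orange) member averaging 5 FPKM or more in the pair, by tissue, with black bars at medians, green dashes at the median of all genes and dotted lines at 2-fold. Mitochondrial medians lie below nuclear ones in uterus, liver, spleen, lung and heart and above them in the other 5 tissues.

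In uterus, the depth of the mitochondrial difference varied from gene to gene. COX1 stood at 19677 FPKM in the control and 4401 FPKM in the DHEA library, 4.47-fold lower (4.44 to 4.50), and CYTB at 9027 and 1847, 4.89-fold lower (4.84 to 4.94). The complex I genes ND5 (1688 and 740 FPKM) and ND2 (2870 and 1110) were 2.28-fold (2.25 to 2.31) and 2.59-fold (2.55 to 2.63) lower. COX3, at 362 and 58.9 FPKM, was 6.14-fold lower (5.72 to 6.59). All 13 were at least 2-fold lower, where the background was 10.1% lower and 7.85% higher, but the spread among them was larger than their counting error.

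Of 78 nuclear members in uterus, 5 were at least 2-fold lower, a smaller share than the 10.1% of all genes, and none was higher. Their median was -0.40 against -0.12 for all genes, and it was -0.17 in the authors' deposited table. Cox7a2l, at 356 and 96.7 FPKM, was 3.68-fold lower (3.53 to 3.84), the lowest ratio of a nuclear member there among those averaging 5 FPKM or more. The other 4 past 2-fold were Uqcrh (223 and 86.9 FPKM), Ndufc2 (254 and 104), Cox6c (79.6 and 35.9) and Ndufa6 (34.9 and 16.5). Cox4i1, the widespread subunit 4, lay just outside the 2-fold line, at 276 and 141 FPKM. Ndufa11, an accessory subunit of complex I, stood at 26.7 and 54.3 FPKM, 2.03-fold higher (1.83 to 2.27), but its ratio after adding 1 FPKM was just under 2-fold. The medians by complex were -0.42 for I, -0.17 for II, -0.32 for III, -0.57 for IV and -0.37 for V. In the same pair 8 smooth muscle markers summed to 1698 FPKM in control and 5160 in DHEA, 10 fat cell markers to 1417 and 237, and the cytosolic ribosome genes had a median of -1.28. Nuclear-retained RNAs (6 genes) summed to 19.6 and 50.9 FPKM, with 13.5 and 45.9 from Malat1 alone. The part of these in the members' differences was not tested.

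In spleen, 12 of 12 mitochondrial members were at least 2-fold lower and 0 of 78 nuclear ones, with a background of 0.939%. COX1 stood at 9581 and 3389 FPKM, 2.83-fold lower (2.81 to 2.85), ND2 at 1433 and 611, 2.34-fold lower (2.29 to 2.40), and COX3 at 156 and 32.7, 4.78-fold lower (4.30 to 5.31). The nuclear median was -0.18, and the lowest nuclear member was Ndufa5, an accessory subunit of complex I, at 19.0 and 12.2 FPKM. Cox6b2 was the single nuclear member 2-fold higher, at 2.97 and 9.03 FPKM, 3.04-fold (2.23 to 4.19), where 5.73% of genes were higher. Cox6a2 stood at 9.2 and 18.4 FPKM. Markers of red cell precursors (6 genes) summed to 2350 FPKM in control and 17957 in DHEA. Nuclear-retained RNAs (6 genes) summed to 44.9 and 76.7 FPKM, with 34.9 and 64.7 from Malat1 alone. The cytosolic ribosome genes had a median of -0.47. The part of all these was not tested.

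Lung was the third tissue with a broad mitochondrial difference. Of its 13 mitochondrial members 10 were 2-fold lower, against a background of 0.872% lower and 0.796% higher, and ND2, ND5 and ND6 were the 3 that were not. COX1 stood at 9774 and 4155 FPKM, 2.35-fold lower (2.34 to 2.37), and ND5 at 978 and 693, 1.41-fold lower (1.39 to 1.44). ND4L, at 147 and 27.8 FPKM, was 5.30-fold lower (4.42 to 6.39). Its copy Gm10222 had a log2 ratio of depth-scaled reads of -0.56, ND4L itself -2.40, and both together -1.81, so 2 rows of near-identical sequence had different ratios.

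The nuclear members of lung were low across all complexes, with a median of -0.43 against -0.01 for all genes. Of these members 74 of 80 were negative, and of all genes 4045 of 7913. The nuclear median was -0.25 when libraries were rescaled without the mitochondrial genes and -0.21 in the authors' deposited table. Cytosolic ribosome genes were as low, with a median of -0.47. By complex the medians were -0.41, -0.31, -0.51, -0.46 and -0.41 from I to V. Ndufb1, a small membrane-arm subunit of complex I, was the single one 2-fold lower, at 19.9 and 9.21 FPKM (2.16-fold, 1.81 to 2.58), and no nuclear member was past 2-fold after that rescaling or in the authors' deposited table. Cox6a2 had the highest ratio, at 13.8 and 19.9 FPKM (1.45-fold, 1.18 to 1.77). Heart muscle markers (8 genes) summed to 82.3 and 99.3 FPKM in the same libraries. Nuclear-retained RNAs (6 genes) summed to 106 and 158 FPKM, with 55.8 and 107 from Malat1 alone. The part of both sets was not tested.

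In heart the genomes went opposite ways. Of 13 mitochondrial members 5 were 2-fold lower and 0 of 83 nuclear ones, with a background of 0.338% lower and 0.48% higher. CYTB stood at 13238 and 6404 FPKM, 2.07-fold lower (2.05 to 2.08), and ATP6 at 757 and 154, 4.92-fold lower (4.67 to 5.19). ND2 stood at 11061 and 9667 FPKM, 1.14-fold lower (1.14 to 1.15), and ND5 at 4454 and 3777, 1.18-fold lower (1.17 to 1.19). The reads of Gm10925 had a log2 ratio of -1.26 and those of ATP6 -2.30, and together -1.80. Nuclear members were slightly higher, with 76 of 83 positive, where 3682 of all 5620 genes were positive. The nuclear median was 0.15 against 0.06 for all genes, and it was 0.04 when libraries were rescaled without the mitochondrial genes. Ndufs6b, a relative of Ndufs6 measured from 36 and 59 reads, had the highest ratio (5.89 and 10.9 FPKM), and Ndufa4l2 the lowest (24.4 and 20.1). In the same pair the red cell precursor markers summed to 656 and 326 FPKM, with 0 and 1 of 6 at 0. The nuclear-retained RNAs summed to 19.4 and 11.9 FPKM, with 2 and 1 of 6 at 0 and 12.9 and 6.57 FPKM from Malat1 alone. The part of both sets was not tested.

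In liver, ND2 and most other mitochondrial genes differed in opposite directions. ND2 stood at 2775 and 3965 FPKM, 1.43-fold higher (1.41 to 1.45), whereas CYTB stood at 2686 and 1498, 1.79-fold lower (1.77 to 1.82). COX3 (113 and 51.9 FPKM) and ATP6 (61.9 and 29.3) were 2-fold lower, 2 of 12 members, against a background of 2.31% lower and 1.65% higher. ND5 and ND6 had ratios of 0.03 and -0.06. Nuclear members had a median of -0.10, from Cox7b (78.4 and 47.7 FPKM, 1.64-fold lower, 1.52 to 1.78) to Uqcrc1, a core protein of complex III (58.4 and 68.5 FPKM). The red cell precursor markers summed to 31.6 and 136 FPKM in this pair, with 2 of 6 at 0 in each library. The nuclear-retained RNAs summed to 16.4 and 7.01 FPKM, with 1 of 6 at 0 in each and 11.3 and 4.83 FPKM from Malat1 alone. The brown fat markers summed to 2.25 and 25.3 FPKM, with 2 and 3 of 5 at 0. Of these 5, only 1 averaged 5 FPKM or more, with a log2 ratio of 4.27, and Ucp1, the brown fat uncoupling protein, stood at 0 in both libraries. Their part was not tested.

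The log2 ratios of ND2, ND5 and ND6 lay above those of ND1, COX1 and CYTB, as medians, in uterus, liver, spleen, lung and heart. The median log2 ratios of these 2 groups of 3 genes were -1.30 and -2.16 in uterus, 0.03 and -0.63 in liver, -1.40 and -1.78 in spleen, -0.59 and -1.30 in lung, and -0.24 and -0.99 in heart. In thymus, where levels were higher with DHEA, the medians were -0.02 and 0.59. They were -0.06 and -0.01 in ovary, 0.19 and 0.15 in kidney, -0.22 and 0.10 in intestine and -0.30 and -0.05 in brain, so the order was not shared by all tissues. The grouping was made after the values were seen and was not tested. None of the 6 genes had a near-identical full-length copy among the matches kept.

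Thymus had the lowest mitochondrial share of reads among control libraries, 0.661%, and 0.896% in the DHEA library, where spleen was lowest at 0.838%. COX1 stood at 2053 and 3186 FPKM and ND1 at 598 and 902, while ND5 stood at 245 and 242. None of 12 mitochondrial members reached 2-fold, the background being 1.18% higher and 0.142% lower. ND4L, from 31 and 59 reads, was 2.09-fold higher (1.33 to 3.35) before 1 FPKM was added and less than 2-fold after. Its copy Gm10222, from 44 and 34 reads, had a log2 ratio of depth-scaled reads of -0.23, and both together 0.45. Cox8b was the single nuclear member 2-fold higher, at 14.1 and 38.1 FPKM, 2.71-fold (2.14 to 3.46). Cox7a1 stood at 8.41 and 14.1, 1.67-fold higher (1.27 to 2.22). Brown fat markers (5 genes, none at 0) summed to 40.8 and 144 FPKM in these libraries, with the brown fat uncoupling protein Ucp1 at 26.5 and 110, and fat cell markers (10 genes, none at 0) to 107 and 443. Heart muscle markers (8 genes, none at 0) summed to 1.09 and 10.6 FPKM. The part of these cells in the Cox8b and Cox7a1 differences was not tested. Atp5b, the catalytic beta subunit, had the lowest ratio, at 287 and 255 FPKM.

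Ovary, kidney, intestine and brain had no mitochondrial member at 2-fold. In ovary the background was 1.98% higher and 2.63% lower, and the nuclear median was -0.15, between Cox6b2 (7.77 and 12.4 FPKM, 1.59-fold higher, 1.29 to 1.97) and Ndufa4l2 (7.32 and 3.65 FPKM, 2.01-fold lower, 1.48 to 2.75, and less than 2-fold after adding 1 FPKM). In kidney, with a background of 1.12% and 0.515%, the mitochondrial median was 0.07 and the nuclear -0.07. Ndufa4l2 was again lowest there, at 8.18 and 4.09 FPKM, and COX3 was the lowest mitochondrial member, at 293 and 165. Ndufb4c, with the highest nuclear ratio of kidney, rested on 54 and 52 reads.

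In intestine 11% of genes were 2-fold higher and 3.38% lower, but no member of either genome was. The mitochondrial median was -0.09 and the nuclear -0.11, while the cytosolic ribosome genes had a median of 1.03 with 40 of 76 at 2-fold. COX1 stood at 72938 and 71110 FPKM and ND1 at 23946 and 25634. COX3, at 4889 and 2518, was the lowest (1.94-fold lower, 1.91 to 1.97). Nuclear ratios lay between -0.41 for Ndufb7 (36.5 and 27.2 FPKM) and 0.24 for Ndufa4 (178 and 211), which is known as a complex IV subunit but is counted with complex I here, by its symbol.

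In brain, with a background of 5.37% higher and 5.67% lower, Cox6a2 was the single member at 2-fold. It stood at 2.18 and 8.48 FPKM, from 31 and 96 reads, 3.89-fold higher (2.57 to 6.04). The interneuron protein Pvalb, also a muscle marker, stood at 417 and 44.4 FPKM in the same libraries. The muscle gene Acta1, at 1.34 and 5.48 FPKM, went the other way, and Ckm, at 0 and 0.0825, was too low to give a direction. Of the 10 skeletal muscle markers, Pvalb alone averaged 5 FPKM or more. Nuclear-retained RNAs (6 genes) summed to 55.9 and 253 FPKM, with 16.8 and 52.2 from Malat1, and the part of all these was not tested. Sdhc, the anchor of complex II, was lowest at 40.5 and 26.4 FPKM (1.53-fold lower, 1.44 to 1.63). The nuclear median was -0.20, with 68 of 77 negative, and that of all genes -0.06, with 4243 of 7596 negative.

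The 10 lists of related mitochondrial genes were read in the tissues where the mitochondrial members were low. In uterus their medians ran from -0.46 for complex IV assembly factors to 0.51 for the cytochrome c link. There 2 of 7 assembly factors of complexes II and III and 1 of 10 of complex IV were 2-fold lower. So were 1 of 16 inner-membrane and import genes and 2 of 64 mitochondrial ribosome genes, with a background of 10.1%. In lung the medians ran from -0.47 for assembly factors of complexes II and III to 0.02 for regulators. One count was not 0, with 1 of 55 mitochondrial ribosome genes 2-fold lower and a background of 0.872%. In spleen the medians ran from -0.20 to -0.02, in liver from -0.13 to 0.08 and in heart from -0.02 to 0.14, with 0 genes 2-fold lower. Genes that copy, transcribe and process mitochondrial DNA had medians of 0.03 in uterus, -0.20 in spleen, -0.21 in lung, 0.08 in liver and 0.07 in heart. Mitochondrial ribosome genes had medians of -0.27, -0.17, -0.23, 0.07 and 0.11 in the same order. No gene of these lists was called across tissues.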

How the data were processed

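Bulk RNA-seq values of 20 libraries were taken as FPKM, deposited by the authors in 1 table of 24826 genes. HISAT2 2.0.5 and the builds hg38 and mm39 are named in the submitters' processing notes, and the counting tool, annotation, strand setting and treatment of reads with several matches are not stated there (not given in the sources used here). A second table of log2 folds was deposited by the authors for 11372 genes and was used as an alternative. Columns were read as control or DHEA from their match to sample titles.

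Rows with a repeated symbol (57) were left out, leaving 24769. Because low FPKM values are whole multiples of 1 read, read numbers were recovered per library, and the recovered reads were 98.1 to 99.5% of the FPKM denominators. They served for the 95% Clopper-Pearson intervals of folds, which cover counting error only. Differences were log2 of FPKM + 1, for genes averaging 5 FPKM or more in the 2 libraries of a tissue. The limma fits (limma 3.58.1, R 4.3.3, trend) used all 14833 genes averaging 1 FPKM or more and Benjamini-Hochberg adjustment, and the fitting step was tested on simulated data. Nuclear copies were found with blastn 2.17.0 in GENCODE transcripts (GRCm38, at least 100 bases and 90% identity), a build other than mm39, so only sequences and names were carried over. The labels pair a control and a DHEA library by tissue, which was the block of the fit across tissues.

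Members and gene lists were chosen with earlier results of these data known. Named genes were all 13 mitochondrial members, the paired forms, the members with the highest and lowest ratio in each tissue, and per complex those with the highest and lowest mean and the widest and narrowest range. One gene that this rule names is not reported here. Members past 2-fold and Ndufa11 in uterus, and the 2 groups of 3 mitochondrial genes, were singled out after their values were seen.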

Additional observations from a re-analysis of the deposited data

Results flagged for a closer look

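The summed mitochondrial reads, scaled to depth, had a log2 ratio, DHEA over control, of 0.44 in thymus and -1.99 in uterus, the tissues at the ends of the range. The summed nuclear reads had a log2 ratio of 0.16 in heart and -0.43 in uterus. Cox6b2 had 1.34 in spleen and -0.86 in uterus, and Cox7a1 had 0.68 in thymus and -0.59 in kidney. Each of these was picked because the single pairs of libraries of 2 tissues went opposite ways, and the difference between tissues was not tested.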

How the results depend on the processing

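Of 100 median log2 ratios recomputed under alternatives, 73 moved by less than the counting error, 25 moved further and 2 changed sign. Rescaling to the FPKM of all genes but the mitochondrial ones gave mitochondrial medians of -2.08 in uterus, 0.017 in kidney, -1.05 in lung, -0.88 in heart and 0.032 in intestine, and nuclear medians of -0.25 in lung, 0.038 in heart and 0.0075 in intestine. Both intestine medians were negative before rescaling. Centring on the median of all genes gave mitochondrial medians of -2.04 in uterus, 0.14 in kidney, -0.83 in heart, -0.20 in intestine and -0.083 in brain, and nuclear medians of -0.28 in uterus, 0.093 in heart and -0.22 in intestine. With the authors' deposited table, mitochondrial medians were -1.92 in uterus, 0.0070 in kidney, -1.02 in lung, -0.0063 in intestine and -0.18 in brain, and nuclear medians -0.17 in uterus, -0.21 in lung, 0.24 in heart and -0.029 in intestine. A pseudocount of 0.1 FPKM gave -0.85 for the mitochondrial genes of heart, and no filter on low values -0.20 for those of brain.

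Of 240 counts of members past 2-fold, 205 stayed within 1.5 times. At 1.5-fold, 23 nuclear members of uterus and 11 of lung were lower, against 5 and 1, and 8 mitochondrial members of liver, against 2. The share of all genes past 1.5-fold is not given here. The lower quartile of their log2 ratios was -0.50 in uterus, -0.23 in lung and -0.21 in liver. By the authors' deposited table, nuclear members 2-fold lower in lung numbered 0 and those 2-fold higher in spleen 3. It was not used for Cox8b in thymus and Cox6a2 in brain, which have no row in it, so its counts of 0 there say nothing of these genes. With recovered reads in place of FPKM, the change of the mitochondrial over the nuclear sum was 0.10 in ovary, -1.57 in uterus, -0.41 in liver, -1.44 in spleen, 0.41 in thymus, -0.81 in lung, -0.74 in heart, 0.066 in intestine and 0.16 in brain, all in the direction of the FPKM sums.

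In tissue contrasts, 56 of 66 counts stayed within 1.5 times. Rescaled to the same summed FPKM of all genes but the mitochondrial ones, brain had 27 nuclear members higher and 6 lower. Of all 14907 genes, 5879 were then higher and 4199 lower. Leaving out 1 brain library gave 1 to 2 higher and 12 to 19 lower. Leaving out 1 heart library gave 6 to 10 mitochondrial members higher in heart, and leaving out 1 kidney library 0 to 3 in kidney. Nuclear members lower in kidney numbered 0 with a pseudocount of 0.1 FPKM, 1 with no filter and 1 without either kidney library. Across tissues, no member was called under any of the alternatives run, among them the fit without tissue as the pairing block (0 members called). The cause of these shifts was not tested.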
